A study of Mus musculus with 2 samples.

Results

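The subject is the 8 lysosomal protease genes Ctsb, Ctsd, Ctsl, Ctss, Ctsk, Ctsz, Ctsc and Lgmn, chosen by name out of the 56941 features counted in each library, and all 8 had a row in both. The cells were CD45+ cells magnetically selected from liver metastases of C57BL/6 mice, collected 2 weeks after intrasplenic injection of MC38-LM3b cells, a colon carcinoma line passaged repeatedly through the liver. The Ctrl library (shScramble) and the KD library (shSLAMF3) each pooled the lesions of 3 mice, aged 6 to 8 weeks at injection. The hairpin, 1 sequence against SLAMF3, was carried by the injected tumor cells, so the CD45+ host cells were unmodified. With 1 library per group there was no replicate, no test was possible, and the ranges in parentheses are exact 95% intervals that cover counting error only. Differences between mice, or between the handling of the libraries, cannot be told apart from the effect of the hairpin.

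Cathepsins are proteases that work mainly in the acidic lumen of endosomes and lysosomes. They are made as inactive proenzymes, carried there by mannose 6-phosphate receptors and sortilin, and matured by cleavage. Ctsb, Ctsl, Ctss and Ctsk encode cysteine endopeptidases, Ctsz a carboxypeptidase, Ctsc the dipeptidyl peptidase that activates granule serine proteases, Ctsd an aspartic protease and Lgmn the asparaginyl endopeptidase legumain, which also processes other cathepsins. Macrophages are rich in them, dendritic cells use cathepsin S to cut the invariant chain of MHC class II, and osteoclasts are known for cathepsin K.

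The Ctrl library held 10416 barcodes with 67207234 UMIs and the KD library 10943 barcodes with 64444715 UMIs, of which 9814 and 10185 barcodes passed the filters, and 27 barcodes occurred in both libraries. Ly9, the gene that encodes SLAMF3, was counted with 1349 UMIs in Ctrl and 1157 in KD over all kept cells. In the cluster with tumor or fibroblast markers, where the hairpin could act, Ly9 had 12 UMIs in 161 Ctrl cells and 7 in 95 KD cells, a log2 ratio of -0.14 (-1.73 to 1.32), so the knockdown could not be checked in these libraries. Levels are given as CPM, the UMIs of a gene in each 1000000 UMIs of all cells of a class summed. The classes were named from marker genes, with the 8 genes and the other lysosomal lists kept out of the clustering, and the monocyte cluster was counted with the macrophages. The macrophage class held 4094 Ctrl and 2998 KD cells. CD45+ selection left 150 and 646 endothelial cells, marked by Stab2 and Clec4g, and the 161 and 95 cells with keratin and collagen genes.

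Of the 7 genes with an entry among the RefSeq promoters (GRCm38.p6, an earlier build than the GRCm39 used for counting), 3 held CACGTG, the core of the element bound by the lysosomal regulators TFEB, TFE3 and MITF, in the 250 bases before the start. Those were Ctsd, Ctsl and, at the downstream of its 2 listed starts, Lgmn. CACGTG reads the same on both strands, and 6.02% of the 32851 listed windows of the same length held it. The longer TCACGTGA, which contains it, was found only before Ctsd among the members and in 0.785% of all windows. The windows of Ctsd and Ctsl, the members with the highest KD to Ctrl ratios in macrophages, are shown beside that of Ctsc, the member with the lowest, each 5′ to 3′ on the strand of the gene with CACGTG in capitals. The match is a description of letters and says nothing about binding. Since the windows shown were chosen by the ratios, their pairing with the motif is no test. Lgmn held the motif at a ratio of 0.15, and the windows of Ctss, Ctsz and Ctsk held none.
Ctsd, chr7:142387828-142388077, minus strand: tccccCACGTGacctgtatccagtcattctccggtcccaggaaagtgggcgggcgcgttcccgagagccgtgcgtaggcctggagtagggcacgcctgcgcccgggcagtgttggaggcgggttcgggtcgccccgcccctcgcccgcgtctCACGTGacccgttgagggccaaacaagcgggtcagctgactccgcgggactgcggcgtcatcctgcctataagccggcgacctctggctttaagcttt
Ctsl, chr13:64370521-64370770, minus strand: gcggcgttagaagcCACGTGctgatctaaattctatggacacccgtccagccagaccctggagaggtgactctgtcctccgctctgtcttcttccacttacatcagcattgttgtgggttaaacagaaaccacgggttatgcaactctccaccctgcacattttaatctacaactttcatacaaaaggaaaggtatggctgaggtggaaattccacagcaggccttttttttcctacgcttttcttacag
Ctsc, chr7:88277835-88278084, plus strand: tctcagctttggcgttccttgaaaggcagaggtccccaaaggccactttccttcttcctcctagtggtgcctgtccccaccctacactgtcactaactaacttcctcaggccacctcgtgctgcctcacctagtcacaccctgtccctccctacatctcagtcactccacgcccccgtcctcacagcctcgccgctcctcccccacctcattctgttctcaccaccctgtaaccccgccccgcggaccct
The motif began 245 and 98 bases before the listed start of Ctsd and 236 bases before that of Ctsl, and the window of Ctsc held none. The Ctsl window ended in a pyrimidine-rich stretch and ag, letters also found where an intron meets an exon. Whether the listed starts are used in these cells was not tested.

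The macrophage class contributed most of the UMIs of 6 members in Ctrl. It held 40.7% of all Ctrl UMIs but 85.9% of those of Ctss, 85.0% of Lgmn, 83.3% of Ctsc, 80.0% of Ctsz, 72.4% of Ctsb and 64.6% of Ctsl. Ctsd departed from this, with 37.8% in macrophages and 43.5% in T cells, which held 39.1% of all Ctrl UMIs, and Ctsk had 80 UMIs in all in Ctrl. In KD the macrophage share was 38.2% of all UMIs and between 47.8% (Ctsl) and 80.0% (Ctss) of the UMIs of the 7 members other than Ctsk. Summed over the 8 genes, cathepsins and legumain took 0.819% of macrophage UMIs in Ctrl and 0.789% in KD, against 0.0865% and 0.0776% in T cells. Kupffer cells, the resident macrophages of the liver, stood highest, with 1.5% and 1.44%, from 48 and 83 cells.

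**Figure D1:**
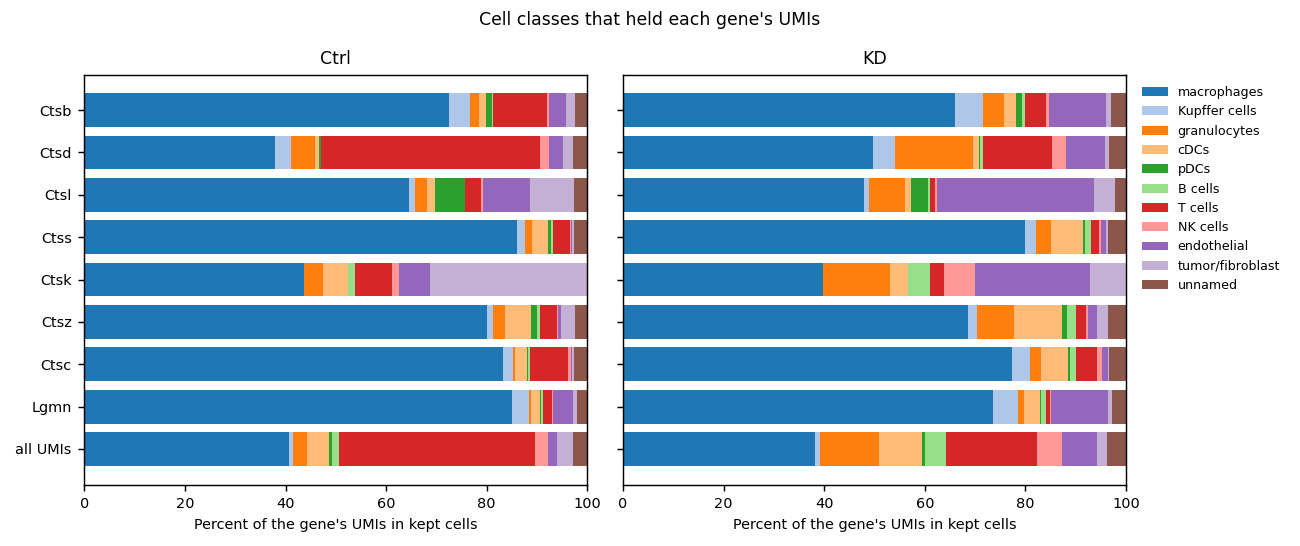
Horizontal bars give the percent of each gene's UMIs found in each cell class among kept cells, for Ctrl (left) and KD (right), and the lowest bar gives the same for all UMIs. Macrophages held 85.9% of Ctss UMIs in Ctrl, whereas T cells held 43.5% of Ctsd UMIs in Ctrl and 13.8% in KD, beside 39.1% and 18.1% of all UMIs.

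Ctss, the endopeptidase of the invariant chain, was high in macrophages and dendritic cells, and in Ctrl higher in granulocytes than in B cells. In Ctrl it was at 3394 CPM (3221 to 3575) in Kupffer cells, 2867 (2846 to 2887) in macrophages, 1047 (1009 to 1086) in conventional dendritic cells (cDCs), 765 (690 to 847) in plasmacytoid dendritic cells (pDCs), 667 (630 to 705) in granulocytes and 418 (375 to 465) in B cells. NK cells at 123, T cells at 118, endothelial cells at 166 and the tumor or fibroblast cluster at 157 CPM formed the low end, and their Ctrl intervals overlapped from each to its neighbor. In KD the order was the same down to pDCs, but granulocytes stood below B cells, at 308 CPM (295 to 321) against 349 (327 to 373).

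Ctsz and Ctsc, the exopeptidases, shared the high macrophage level but differed in the other classes. Ctsz was at 641 CPM (631 to 651) in Ctrl macrophages and at 590 (519 to 668) in Kupffer cells, whose intervals overlapped, and was still at 480 (420 to 545) in pDCs, 400 (377 to 424) in cDCs and 297 (273 to 321) in the tumor or fibroblast cluster, against 27.7 in T cells and 29.7 in NK cells. Ctsc was at 2974 CPM (2812 to 3143) in Kupffer cells and 2067 (2049 to 2084) in macrophages of Ctrl. It was at 576 (548 to 605) in cDCs, and in lymphocytes at 267 (233 to 305) in B cells, 198 (177 to 220) in NK cells and 196 (191 to 202) in T cells. Granulocytes, whose granule proteases need cathepsin C, had 145 CPM (128 to 163) of Ctsc in Ctrl and 130 (122 to 139) in KD.

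Lgmn was largely a gene of macrophages, Kupffer cells and endothelial cells. Its Ctrl levels were 2143 CPM (2006 to 2287) in Kupffer cells, 925 (870 to 982) in endothelial cells and 885 (873 to 896) in macrophages, and the last 2 intervals overlapped. In KD they were 2578 (2453 to 2708), 829 (802 to 856) and 981 (968 to 994). No other named class exceeded 194 CPM in either library, and T cells had 20.8 and 23.0 CPM.

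Ctsb had a similar reach but was also a pDC gene. In Ctrl it was at 4180.5 CPM (3988 to 4380) in Kupffer cells and then at like levels in endothelial cells (1209, 1147 to 1275), macrophages (1135, 1122 to 1148) and pDCs (1049, 960 to 1144), where each interval overlapped the next. Granulocytes (388) and the tumor or fibroblast cluster (375) came after, and cDCs had 196 CPM (180 to 214), close to T cells at 175 (170 to 180.4).

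Ctsl was not highest in macrophages. In Ctrl it was at 1653 CPM (1541 to 1771) in pDCs, 1093 (1033 to 1155) in endothelial cells and 591 (558 to 625) in the tumor or fibroblast cluster, all above the 347 (293 to 408) of Kupffer cells and the 338 (331 to 345) of macrophages. In KD the same 3 classes led with 1867, 1852 and 801.5 CPM. In B cells Ctsl was counted with 12 UMIs in Ctrl and 87 in KD (14.8 and 34.9 CPM), under the number needed for the comparison of libraries. T cells were lowest or next to lowest with 16.9 CPM in Ctrl and 20.1 in KD.

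Ctsd was high in granulocytes and T cells as well as in Kupffer cells. Kupffer cells had 1412 CPM (1301 to 1529) in Ctrl, followed by granulocytes at 464 (433 to 496) and endothelial cells at 411 (375 to 450), whose intervals overlapped. T cells came next at 310 (303 to 317), above macrophages at 258 (252 to 265), and NK cells were at 201 (180 to 224). In KD macrophages (423, 415 to 432) stood above T cells (247, 238 to 257). B cells (35.7 and 34.9 CPM) and cDCs (48.4 and 43.5) were lowest in both libraries, whereas pDCs had 106 and 122 CPM.

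The Ctsd of T cells was set against the C1q genes, which T cells are not known to express and which therefore show free RNA and doublets. C1qa, C1qb and C1qc stood in Ctrl T cells at 1.97% to 2.11% of their macrophage level and in KD T cells at 1.35% to 1.64%. Ctsd stood at 120% and 58.4%, Ctsb at 15.4% and 13.3%, and Ctsc at 9.51% and 11.6%. Lgmn, at 2.36% and 2.34%, Ctss at 4.13% and 4.37%, Ctsz at 4.31% and 6.01%, and Ctsl at 5.003% and 3.88% were nearer to the C1q share. After each cell was thinned to 1500 UMIs, a Ctsd UMI was found in 36.9% (35.1 to 38.6) of Ctrl T cells and 24.3% (22.9 to 25.7) of Ctrl macrophages, and a C1qb UMI in 6.2% and 66.3%. Before thinning, a Ctsd UMI was found in 76.4% of Ctrl T cells, whose median depth was 6605 UMIs, and in 54.7% of Ctrl macrophages, at 5570.5 UMIs. The median log2 level of the 7 members other than Ctsk in macrophages over T cells, with the libraries averaged, was 4.28. In endothelial cells Ctss stood at 5.80% and 6.66% of its macrophage level, and the C1q genes at 4.18% to 6.62% and 8.25% to 10.3%. In the tumor or fibroblast cluster Ctss stood at 5.47% and 7.89%, and the C1q genes at 4.55% to 7.64% and 6.99% to 9.12%. The part of free RNA in the low Ctss of these classes was not tested.

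Ctsk, the osteoclast protease, was near the limit of detection. Macrophages had 35 Ctsk UMIs in Ctrl and 45 in KD, or 1.34 CPM (0.931 to 1.86) and 1.91 (1.39 to 2.55). The tumor or fibroblast cluster was highest with 12.3 CPM (7.97 to 18.2) in Ctrl from 25 UMIs and 6.12 (2.64 to 12.1) in KD from 8, and endothelial cells had 4.35 and 6.05 CPM. Kupffer cells and pDCs had no Ctsk UMI in either library, with intervals reaching 8.71 and 7.53 CPM in Ctrl and 5.99 and 7.92 CPM in KD.

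**Figure D2:**
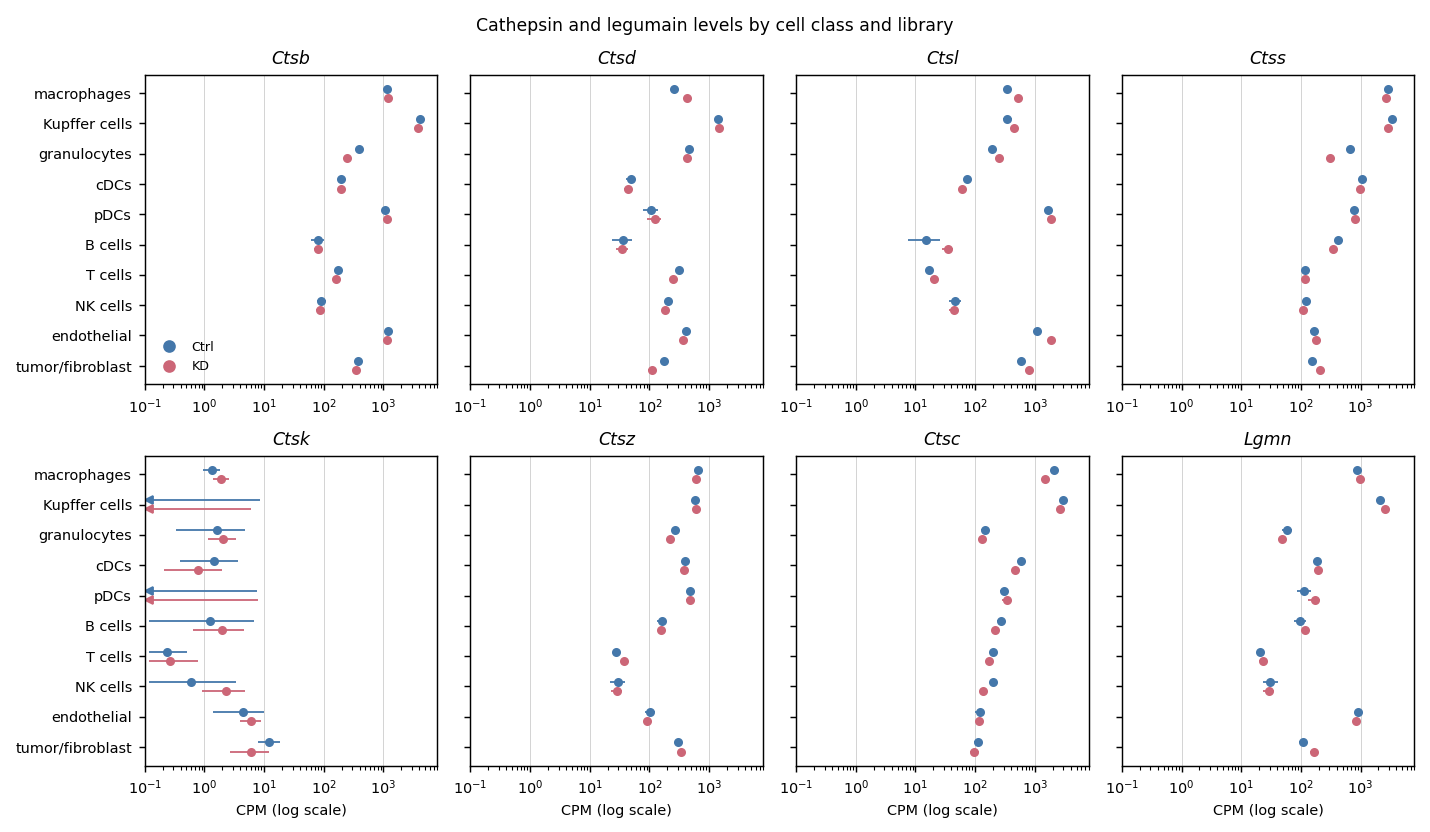
Each panel gives the level of 1 gene in CPM (log scale) in 10 cell classes, with blue for Ctrl, red for KD, bars for exact 95% counting intervals and an arrowhead at the left edge for 0 UMIs. Ctsl was highest in pDCs (1653 and 1867 CPM), Ctsd reached 310 CPM in Ctrl T cells, and Ctsk lay at or below 12.3 CPM in every class.

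Among cDCs, Ctss, Ctsz, Ctsc, Lgmn, Ctsl and Ctsd were higher in the cDC2-like than in the cDC1-like cells of both libraries. In the Cd209a-led cDC2-like cells (144 Ctrl, 255 KD) Ctss was at 1109 and 1050 CPM, whereas in the Xcr1+ Clec9a+ cDC1-like cells (52 and 97) it was at 499 and 426. Ctsc was at 667 and 502 CPM in cDC2-like and at 147 and 181 in cDC1-like cells, and Lgmn at 262 and 227 against 55.9 and 43.0. Ctsz differed less, with 414 and 441 against 230 and 201 CPM, whereas Ctsb, at 233 and 179 against 120 and 184, had no common order in the libraries. Ctsl was at 104 and 66.4 CPM against 6.21 and 35.9, the Ctrl cDC1-like value from 3 UMIs. Ctsd was low in both subtypes, at 49.3 and 43.2 against 12.4 and 12.3 CPM, the cDC1-like values also from few UMIs. Mature Fscn1+ DC-like cells (30 and 34) had 825 and 669 CPM of Ctss and 421 and 236 of Lgmn. The 194 cDCs led by Lpl, S100a8 and C1qb, which carried macrophage markers, had the highest Ctss and Ctsc of the cDC sub-clusters (1914 and 1584 CPM of Ctss, 1198 and 750.5 of Ctsc), with C1qb at 355 and 527 CPM.

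Within macrophages the 7 detected members rose and fell across sub-clusters in different ways. The Vcan+ monocyte-like sub-cluster (409 Ctrl, 449 KD cells) was lowest among the named states with at least 30 Ctrl cells for Ctsb, Ctsd, Ctsl, Ctss, Ctsz, Ctsc and Lgmn in Ctrl, summing to 0.435% of UMIs. The C1q-high TAM-like sub-cluster (503 and 636), led by Mmp12, Ccl8 and Mgl2, summed to 1.14% in Ctrl and 0.951% in KD. The inflammatory sub-cluster (430 and 294), led by Il1a, Cxcl1 and Il6, summed to 0.729% and 0.762%, and the cycling one (488 and 140) to 0.796% and 0.672%. Among sub-clusters without a state name, that led by Hspa1a and Ly6i (1292 and 641) summed to 0.844% and 0.758% and that led by Cadm1 and Psd3 (872 and 310) to 0.745% and 0.685%, the last at a median depth of only 2442 UMIs. A pair of Ltc4s+ Pf4+ sub-clusters came almost entirely from KD. The larger had 8 Ctrl and 369 KD cells and the smaller, led by Pf4, Ccl6 and Arg1, had 1 and 50.

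Ctss, Ctsc and Lgmn were highest in the C1q-high TAM-like cells of each library among sub-clusters with at least 30 of its cells, and so was Ctsz in Ctrl. From the Vcan+ monocyte-like to the C1q-high TAM-like cells of Ctrl, Lgmn went from 273 to 1322 CPM, Ctsc from 911 to 2724, Ctss from 1713 to 3957 and Ctsz from 382 to 872. In KD the same levels were 275 and 1351 for Lgmn, 1057 and 1639 for Ctsc, 1523 and 3410 for Ctss and 406 and 742 for Ctsz. The smaller Ltc4s+ Pf4+ sub-cluster of KD was close to these values, with 1307 CPM of Lgmn, 1573 of Ctsc and 3292 of Ctss, and it stood above the C1q-high TAM-like cells of KD for Ctsz, at 803.

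Ctsb, Ctsd and Ctsl were highest in the Ltc4s+ Pf4+ sub-clusters. In the KD cells of the larger and the smaller one, Ctsd was at 944 and 2034 CPM, against 407 CPM in C1q-high TAM-like cells of KD (421 in Ctrl) and at most 521 in any other sub-cluster with at least 30 cells of a library. Ctsl was at 818 and 2527 CPM, against 225 to 598 in the others. Ctsb was at 1982 and 2571 CPM, against 589 to 1745. The 8 Ctrl cells of the larger sub-cluster also had much Ctsd, 108 UMIs, or 1650 CPM, and less Ctsb (1207) and Lgmn (290).

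**Figure D3:**
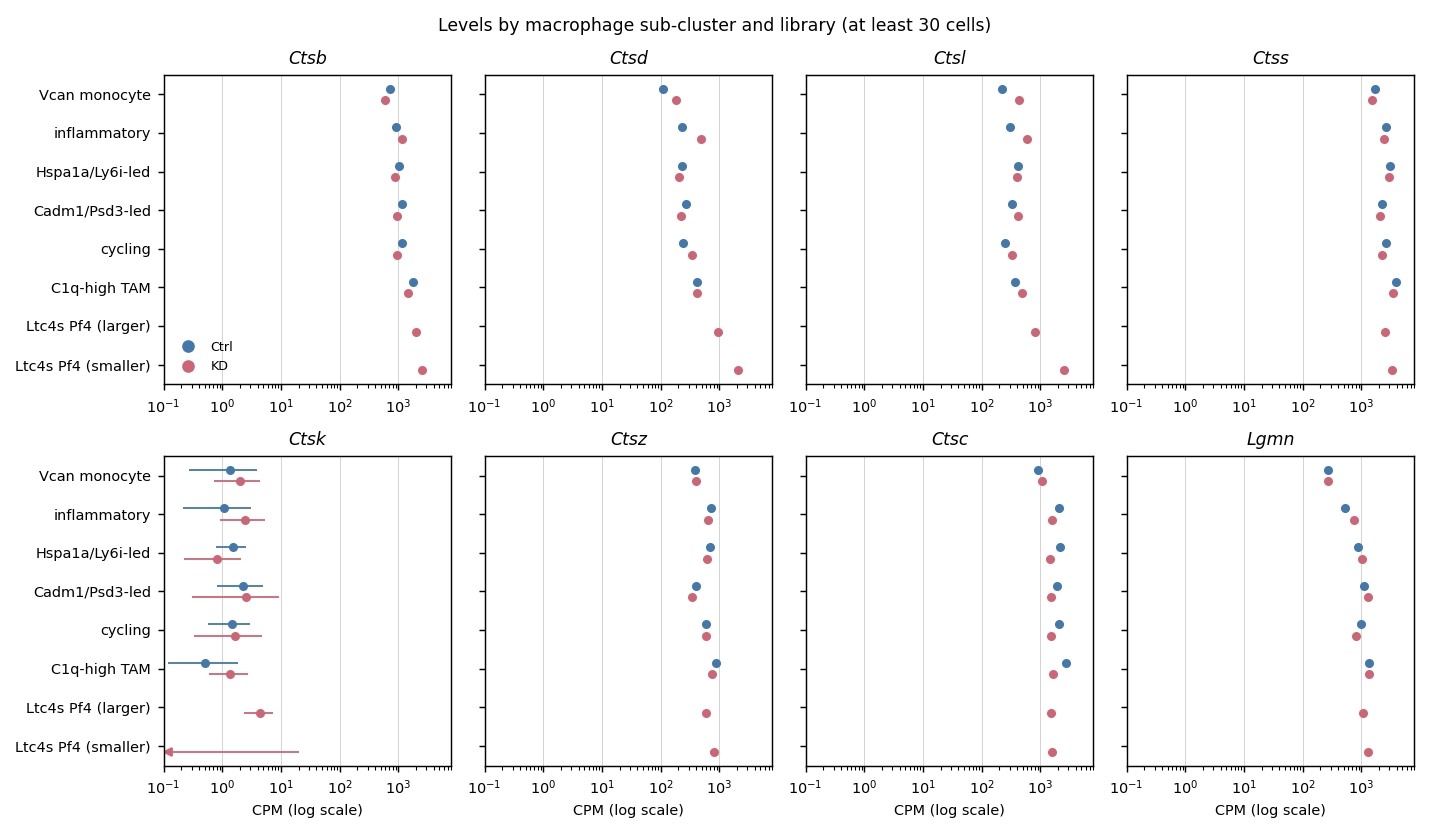
Each panel gives the level of 1 gene in CPM (log scale) in 8 macrophage sub-clusters, blue for Ctrl and red for KD, with exact 95% counting intervals and an arrowhead for 0 UMIs, where a library had at least 30 cells. Ctsd rose to 944 and 2034 CPM in the Ltc4s+ Pf4+ sub-clusters, present only in KD at that cell number, whereas Ctsc was higher in Ctrl than in KD in every sub-cluster shown for both libraries but the Vcan+ monocyte-like one.

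Over the whole macrophage class, 2 members were higher in KD by the rule used here, a log2 ratio of at least 0.5 with an interval without 0. Ctsd was at 258 CPM in Ctrl and 423 in KD, a log2 ratio of 0.71 (0.67 to 0.76), and Ctsl at 338 and 518, a log2 ratio of 0.62 (0.58 to 0.66). The rule called 5.91% of the 10012 genes with at least 200 UMIs higher and 9.09% lower. No member was called lower, though Ctsc, at 2067 and 1467 CPM, lay just inside the limit with -0.49 (-0.51 to -0.48). The other ratios were 0.15 for Lgmn, 0.09 for Ctsb, -0.07 for Ctsz and -0.10 for Ctss, all with intervals that excluded 0 but sizes far below the limit. The median over the 7 tested members was 0.09, beside -0.02 over all tested genes, and Ctsk, with 80 UMIs, was not tested.

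The Ctsd and Ctsl calls over the whole class were lost, with both ratios still above 0, without the KD Ltc4s+ Pf4+ cells. Those 419 cells made up 14.0% of KD macrophages and 14.5% of their UMIs, but 34.4% of their Ctsd UMIs, 25.5% of Ctsl and 24.3% of Ctsb, against 13.9% to 16.0% of those of Ctss, Ctsz, Ctsc and Lgmn. Without the pair of sub-clusters, Ctsd was at 255 and 325 CPM, a log2 ratio of 0.35 (0.30 to 0.40), Ctsl at 0.42 (0.38 to 0.46) and Ctsb at -0.08 (-0.11 to -0.06), so that no member was called higher and Ctsc, at -0.50 (-0.52 to -0.48), was called lower. The rule then called 4.64% of genes higher and 7.95% lower. With 7 sub-clusters given the same weight in both libraries, Ctsd was 0.17 and Ctsl 0.38 higher in KD.

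Ctsc was lower in KD within nearly every macrophage sub-cluster. Counting the 7 sub-clusters that had 30 cells or more in both libraries, 6 had an interval below 0 and 1 above it. The difference was widest in C1q-high TAM-like cells, 2724 against 1639 CPM, a log2 ratio of -0.73 (-0.77 to -0.69), where the rule called 6.02% of genes lower and 13.4% higher. Hspa1a- and Ly6i-led cells had -0.52 (-0.56 to -0.49), with 5.94% called lower and 4.87% higher, and a 124-cell sub-cluster that carried T cell and granulocyte genes had -0.67 (-0.79 to -0.55), with 14.8% called lower. Inflammatory cells (-0.40), cycling cells (-0.48) and Cadm1- and Psd3-led cells (-0.35) lay below 0 inside the limit, where 9.19%, 10.8% and 12.7% of genes were called lower. The Vcan+ monocyte-like cells went the other way at 0.21, with 9.03% of genes called lower. Outside macrophages, Ctsc was also lower in KD in NK cells, 198 against 138 CPM, a log2 ratio of -0.52 (-0.73 to -0.31). There the rule called 5.46% of genes lower and 2.22% higher. Ctsc in NK cells stood at 9.57% of its macrophage level in Ctrl and 9.40% in KD. The macrophage genes C1qa (41.3 and 38.2 CPM), C1qb (59.4 and 39.2) and C1qc (32.8 and 28.6) were lower in KD NK cells too. Their part in the result was not tested.

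Ctsl was higher in KD in most sub-clusters. Its interval lay above 0 in 6 of 7 and below 0 in 1, and it passed the limit in the inflammatory cells (300 against 598 CPM, log2 ratio 1.00), in the Vcan+ monocyte-like cells (225 against 434 CPM, 0.95) and in the 124-cell mixed sub-cluster (0.82). The rule called 9.78%, 5.06% and 9.79% of genes higher in these. Ctsd passed it in the same 3, at 1.05, 0.74 and 0.66, and in cycling cells at 0.53, where 5.42% of genes were called higher. It was lower in KD in Hspa1a- and Ly6i-led cells, at -0.15, and in Cadm1- and Psd3-led cells, at -0.30, neither past the limit. The rule called 5.94% and 12.7% of genes lower in these, and 4.87% and 6.35% higher. Lgmn passed the limit in inflammatory cells, 516 against 751 CPM, at 0.54.

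Several of these sub-clusters were themselves uneven between the libraries. At a finer resolution the C1q-high TAM-like cells fell into a group with 63 Ctrl and 561 KD cells, led by Mmp12 and Mgl2, and a group with 527 and 82, led by Ccl8 and Cadm1. Ctsc had log2 ratios of -0.48 (-0.57 to -0.40) and -0.33 (-0.42 to -0.24) in these, both inside the limit. Ctsd had -0.29 (-0.48 to -0.10) and 0.77 (0.61 to 0.93), the latter past the limit. The shares of all genes past the limit in these finer groups were not computed. In the Vcan+ monocyte-like cells the macrophage genes C1qa (39.3 and 76.6 CPM) and C1qb (73.4 and 134) moved with Ctsd and Ctsl, and their part in the result was not tested. The inflammatory cells likewise separated into 569 Ctrl and 192 KD cells, in which Ctsd had a log2 ratio of 0.28 (0.09 to 0.46) and Ctsl 0.45 (0.30 to 0.59), and a group with 8 Ctrl and 167 KD cells, led by Il6 and Cxcl3, which had 822 CPM of Ctsd and 742 of Ctsl in KD.

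**Figure D4:**
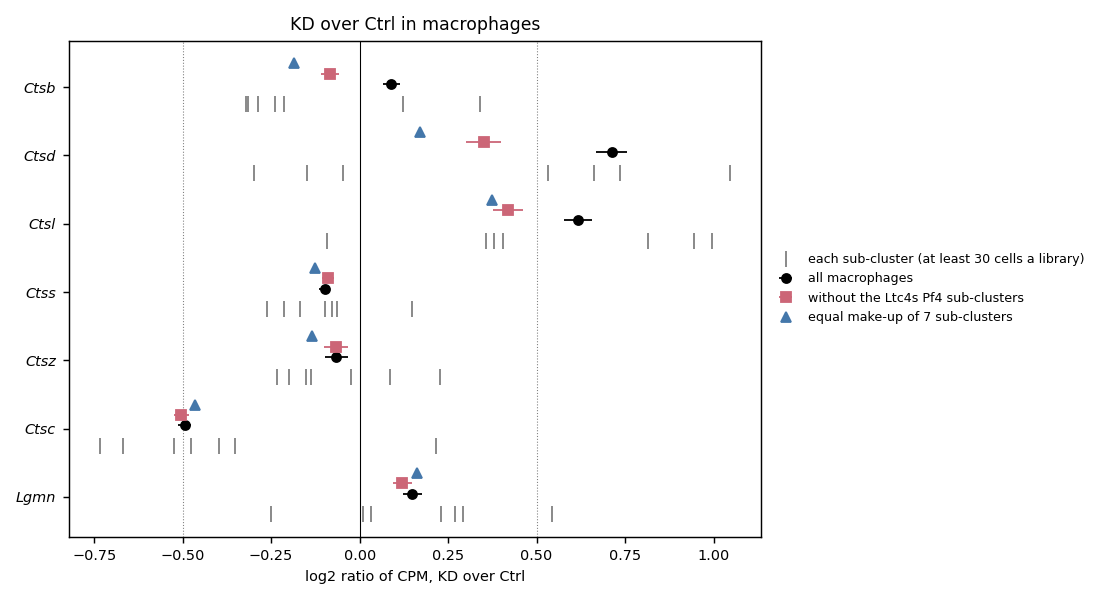
Log2 ratios of CPM, KD over Ctrl, are shown for 7 members in all macrophages (black), without the Ltc4s+ Pf4+ sub-clusters (red) and with an equal make-up of 7 sub-clusters (blue, no interval), with exact 95% counting intervals, grey ticks for single sub-clusters and dotted lines at the limits of 0.5 and -0.5. Ctsd moved from 0.71 to 0.35 and 0.17, Ctsl from 0.62 to 0.42 and 0.38, whereas Ctsc stayed between -0.50 and -0.47.

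In the other classes few members passed the rule. Granulocytes had less Ctss in KD, 667 against 308 CPM, a log2 ratio of -1.12 (-1.22 to -1.01), and less Ctsb, 388 against 247 CPM, at -0.65 (-0.78 to -0.52), where 16.2% of genes were called lower and 22.5% higher. Granulocytes consisted of a mature cluster (735 Ctrl, 1613 KD) and an immature one led by Ngp, Camp and Ltf (45 and 608), and Ctss was low in the latter, at 167 and 204 CPM, a log2 ratio of 0.28 (-0.18 to 0.77), where 16% of genes were called higher and 7.77% lower. Within the mature cluster Ctss was still lower, 744 against 386 CPM, at -0.95 (-1.06 to -0.84), with 14.5% of genes called lower, whereas Ctsb, 428 against 317 CPM, fell short of the limit and Ctsl passed it upward at 0.51, with 22.5% called higher. At a finer resolution the granulocytes fell into 4 clusters that the libraries filled unequally. In that led by Hcar2, Acod1 and Csf1 (539 Ctrl, 298 KD) Ctss was at 925 and 589.5 CPM, a log2 ratio of -0.65 (-0.82 to -0.48). In that led by Stfa2l1 and Asprv1 (204 and 1597) it was at 335 and 306 CPM, at -0.13 (-0.36 to 0.11), and in the other two at 0.35 (-0.13 to 0.87) and 0.11 (-0.05 to 0.28), so that the lower Ctss was seen in 1 of 4. Ctsb was between -0.11 and 0.24 in the 4 clusters. Ctsz, at 271 CPM in Ctrl and 219 in KD over all granulocytes, was higher in KD in most of them. Its log2 ratio was 0.71 (0.51 to 0.91) in the Hcar2-led cluster and 0.68 (0.33 to 1.06) in the Stfa2l1-led one. It was 0.60 (0.27 to 0.93) in the Hdc-led and -0.09 (-0.74 to 0.64) in the Ngp-led one. Lgmn passed the limit only in the Hdc-led cluster, at 0.54. The shares of all genes past the limit in these finer clusters were not computed. C1qb, at 104 and 70.5 CPM in the mature cluster, also differed, and the part of free RNA in the result was not tested.

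Endothelial cells had more Ctsl in KD, 1093 against 1852 CPM, a log2 ratio of 0.76 (0.67 to 0.85), with 8.73% of genes called higher and 9.98% lower. C1qa moved with it, at 130 and 210 CPM, and its part was not tested. In the tumor or fibroblast cluster Ctsd was at 175 and 111 CPM, a log2 ratio of -0.66 (-0.94 to -0.37). Lgmn there was at 107 and 164 CPM, at 0.61 (0.33 to 0.89). In this cluster 16.6% of genes were called lower and 7.31% higher. C1qa (156 and 201 CPM) and C1qb (126 and 175) moved with Lgmn there, whereas C1qc (150 and 137) did not. The part of free RNA was not tested. Of the members with at least 200 UMIs, none passed the limit in cDCs, T cells, B cells, pDCs or Kupffer cells, where the shares called higher were 4.76%, 4.58%, 2.5%, 3.35% and 8.09% and those called lower 5.54%, 3.76%, 4.23%, 9.91% and 13.7%.

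By pattern over the 10 classes in both libraries, the closest genes differed from member to member. Pearson correlations of log2(CPM + 1) over these 20 sums are descriptions, since the sums of a library share its depth and free RNA. Lgmn was nearest to Lamp1, a lysosomal membrane protein (r = 0.97), Sdc3 (0.96) and Renbp (0.95). Ctss was nearest to Zeb2os (0.96), Apobec1 (0.95) and Lacc1 (0.95), and Ctsc to Abcg3 (0.94), Hpgds (0.93) and Kcnk13 (0.93). Ctsz was nearest to Bri3 (0.94), the proton pump subunit gene Atp6v0b (0.94) and 5031439G07Rik (0.92), Ctsb to Itm2b (0.95), Ppnr (0.95) and Tmem86a (0.91), and Ctsl to Man1c1 (0.92), Gng12 (0.90) and Homer3 (0.89). Ctsd was nearest to Hgsnat, a lysosomal acetyltransferase (0.93), and Xdh (0.87), and Ctsk to C430049B03Rik (0.91), Cgnl1 (0.88) and Tinagl1 (0.87). Among the members themselves Ctsc and Ctss were closest (0.90), followed by Ctss and Ctsz (0.85), whereas Ctsd had 0.06 with Ctsz.

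The wider lysosomal lists are read against the 5.91% of all tested genes called higher and the 9.09% called lower in macrophages. Of 5 tested other cathepsins, 1 was higher. That was Ctsg at 3.57, a neutrophil granule protease that led a finer sub-cluster of 2 Ctrl and 23 KD cells together with Camp and Elane. Ctsh was at 0.27, Ctsa at 0.24 and Ctse at 0.14. Of 13 cathepsin inhibitors, 4 were tested, and Serpina3g was lower at -0.90, with Ctla2a at 0.44, the cystatin C gene Cst3 at 0.03 and the stefin B gene Cstb at -0.03. Of 27 other hydrolases, Acp5, the tartrate-resistant acid phosphatase, was higher at 1.03, Ppt1 was lower at -0.77, and Gla was at -0.31.

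Of 16 lysosomal membrane and cofactor genes, 1 was higher, the tetraspanin gene Cd63 at 0.86, with Lamp1 at 0.41, Slc11a1 at -0.11 and Tmem192 at -0.25. None of 15 subunit genes of the V-ATPase, the proton pump that acidifies the lysosome, passed the limit, and they ran from Atp6v1b2 at 0.30 and Atp6v1e1 at 0.25 to Atp6v0c at -0.22 and Atp6v1d at -0.33. Among 7 sorting and regulator genes, the protease receptor genes Sort1 and Igf2r were higher, at 0.93 and 0.82, while M6pr was at -0.40 and Gnptab, which makes the mannose 6-phosphate tag, at -0.42. The list medians were 0.27, 0.003, 0.15, 0.18, 0.03 and 0.05 in this order, beside -0.02 over all tested genes. Without the Ltc4s+ Pf4+ sub-clusters the genes called higher included Ctsg, Ctla2a, Acp5, Cd63, Igf2r and Sort1, and those called lower Ctsc, Serpina3g and Ppt1.

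**Figure D5:**
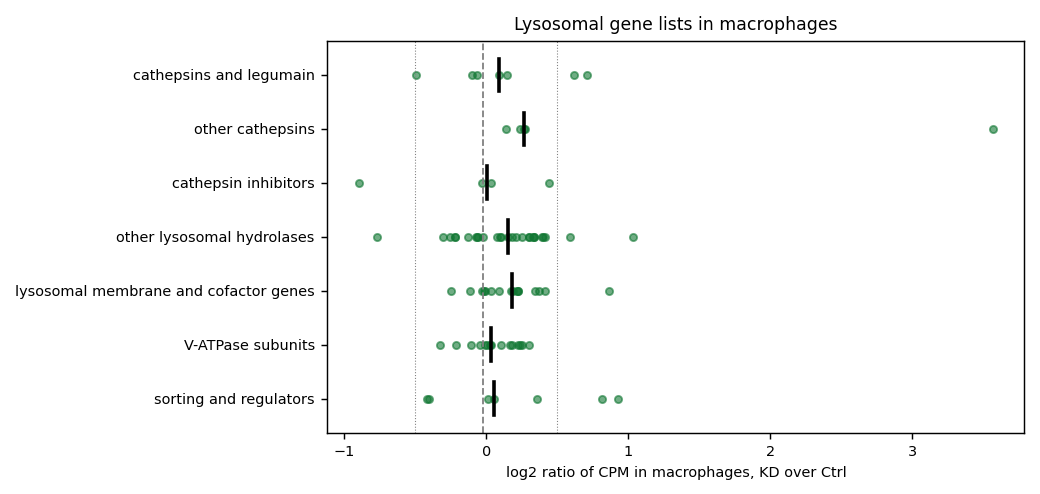
Each point is the log2 ratio of CPM in macrophages, KD over Ctrl, of 1 gene with at least 200 UMIs, grouped by list, with black bars at the list medians, a dashed line at the median of all tested genes (-0.02) and dotted lines at 0.5 and -0.5. Ctsg stood apart at 3.57, and the V-ATPase subunits all lay between -0.33 and 0.30.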

How the data were processed

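The deposited values were UMI counts per gene and cell, which the authors made with Cell Ranger 7.1.0 from 10x 3′ libraries against GRCm39, per the labels. Barcodes were kept from 200 to 6000 detected genes, with up to 30000 UMIs and up to 10% of UMIs from mitochondrial genes. Clustering used Seurat 5.3.0 (2000 variable genes without the 8 members and the lysosomal lists, 20 components, resolution 0.5), and clusters were named from marker lists, a macrophage state from at least 3 markers. Doublets were scored with Scrublet in scanpy 1.11.5 and kept in the main analysis, and leaving them out was an alternative.

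Counts were summed per class and library. Levels carry exact Poisson intervals and ratios exact conditional binomial intervals, checked on simulated counts. Genes with at least 200 UMIs in both libraries together were tested against the limit of 0.5. edgeR 4.0.16 gave the alternative TMM scaling. UMIs count molecules caught at the 3′ end, so levels were compared between classes, not between genes.

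Members, gene lists and tests were chosen with earlier results of these data known. The text names all 8 members and, of every other list, the 2 highest and 2 lowest ratios, and for each member the 3 genes closest in pattern. Some genes that these rules pick are not reported here. Promoter sequences came from RefSeq, and Ctsb had no entry among them.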

Additional observations from a re-analysis of the deposited data

Results flagged for a closer look

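Ctsd moved in opposite directions in macrophages (log2 ratio 0.71) and in the cluster with tumor or fibroblast markers (-0.66, from 355 and 145 UMIs). The ratios differed by 1.37 on the log2 scale. The macrophage ratio was 0.35 without the Ltc4s+ Pf4+ sub-clusters and 0.17 with an equal make-up of sub-clusters, neither past the limit of 0.5. With 1 library per group the difference was not tested.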

How the results depend on the processing

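The median log2 ratio of the members in macrophages (0.09) changed sign to -0.0663 without sub-clusters over 90% from 1 library, to -0.13 with an equal make-up of sub-clusters and, in an alternative chosen after seeing the data, to -0.0547 without the 4 finer sub-clusters over 90% from 1 library. These 3 alternatives left 0 members called higher in place of 2. The count called lower went from 0 to 1, Ctsc in each case, under the stricter cell filter, at resolution 1.0, with cells picked by markers, and without the coarse or the finer 1-library sub-clusters. The median was 0.0024 at resolution 1.0, where a cluster of inflammatory macrophages stayed unnamed and out of the class, 0.0529 with cells picked by markers and 0.12 after thinning. The macrophage to T cell median of 4.28 was 4.71 without likely doublets, 4.15 with picked cells and 4.47 after thinning. The highest sub-cluster ratio was 0.82 rather than 1.05 at the finer resolution. The cause of these shifts was not tested. Over all alternatives Ctsd ranged from 0.17 to 0.85, Ctsl from 0.35 to 0.64 and Ctsc from -0.54 to -0.37, whereas Ctsb ranged from -0.19 to 0.12. Clusters at resolution 1.0 within granulocytes were also chosen after seeing the data. No paired analysis was possible because each group had 1 library. Depth limited Ctsk and the small classes, and no interval covers differences between mice.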

Other observations

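Ctsd also varied among T cells. In Ctrl it was at 352 CPM in the Cd8a+ Pdcd1+ cluster, 284 in the cycling cluster and 180 in the Cd4+ Ctla4+ cluster, and in KD at 304, 232 and 183 CPM. Ctss went the other way, at 104, 122 and 209 CPM in the same Ctrl clusters and at 90.04, 109 and 181 in KD. C1qb was at 42.2, 74.1 and 50.7 CPM in Ctrl.

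The 317 cells of a cluster led by Ifng and Gzma, which carried no class name, held Ctss at 1245 and 1169 CPM, Ctsb at 529.5 and 481 CPM and C1qb at 877 and 861 CPM in Ctrl and KD.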
